A study of Xenopus laevis with 8 samples.

Results

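Genes whose transcripts were lower both with Pinhead RNA and with an oligonucleotide used to deplete Pinhead were described in explants of Xenopus laevis gastrulae. The genes were chosen by their counts scaled to the library total (CPM), averaged per group, with 0.5 CPM added to each mean. A gene was kept where the ratio of Flag-Pinhead ectoderm to control ectoderm and the ratio of PhSpMo marginal zone to control marginal zone were both at most 0.67, and where both control means were at least 3 CPM. Symbols beginning with krt, gata, tfap2, grhl, dlx, msx, ventx, bmp, bambi, szl, fgfr or id and a digit were left out. This gave 74 genes of the 35649 in the table, of which 15094 were past the 3 CPM floor in both control groups. Of these 15094 genes, 662 met the ratio with Flag-Pinhead RNA, 539 met it with PhSpMo and 82 met it in both arms, and 8 of the 82 were left out by symbol. Of the genes lowered with Flag-Pinhead RNA, 12.4% also met the ratio with PhSpMo, which 3.57% of all genes past the floor did. Of those lowered with PhSpMo, 15.2% also met the ratio with Flag-Pinhead RNA, which 4.39% of all genes past the floor did. The values in both arms chose the genes, so they are given as a description and support nothing further.

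Flag-Pinhead ectoderm came from embryos given 1.5 ng of RNA for Flag-Pinhead, an epitope-tagged Pinhead, and control ectoderm was untreated, both at stage 11. PhSpMo marginal zone came from embryos that received 40 ng of PhSpMo, an MO oligonucleotide used to deplete Pinhead, in each blastomere at the 4-cell stage, and control marginal zone was untreated. The marginal zone samples are labelled stage 10.5, while the description of the series gives stage 11. Each of the 4 groups has 2 libraries, and the labels do not say whether the 2 stem from different clutches, so a p-value covers the spread between libraries only. Because both controls were untreated, an effect of injection itself cannot be told apart from that of Flag-Pinhead RNA or PhSpMo.

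Pinhead, encoded by pnhd, is a secreted protein known for its part in mesoderm formation in the gastrula. Ectoderm explants, or animal caps, form epidermis when cultured alone and can be turned to mesoderm by added signals, while the marginal zone is the belt around the embryo that forms mesoderm. The early ectoderm has an outer epithelial layer, and its epidermis later holds multiciliated cells, ionocytes and mucus-secreting cells. At its border with the neural plate, genes such as the Irx, Eya and Sox families mark placodes and neural crest. X. laevis is an allotetraploid, so that many genes have a copy on an L and a copy on an S chromosome, written here as the ending of the symbol.

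The libraries held 12551618 to 19719311 counts. Levels of pnhd.L were 31777 and 59876 CPM in Flag-Pinhead ectoderm and 16.1 and 18.3 CPM in control ectoderm, so the 2 Flag-Pinhead libraries differed in the amount of this RNA. They were 58.8 and 55.0 CPM in PhSpMo marginal zone and 93.7 and 89.2 CPM in control marginal zone. The S copy of pnhd, LOC108706889, had 14.3 and 10.6 CPM in Flag-Pinhead ectoderm, against 1.06 and 1.43 CPM in control ectoderm. Its marginal zone levels were 34.1 and 38.4 CPM with PhSpMo, against 79.8 and 83.6 CPM in control marginal zone. All 10 rows of the mesoderm markers (t, vegt, eomes, wnt8a and foxc1) were detected in every group and summed to 685 and 736 CPM in Flag-Pinhead ectoderm, against 31.3 and 33.1 CPM in control ectoderm, and to 1795 and 1870 CPM in PhSpMo marginal zone, against 2319 and 2225 CPM in control marginal zone. In control ectoderm the endoderm marker cer1.S, 1 of the 2 rows of mixer.S and the organizer marker gsc.L were at 0. The chi-square between the 2 PhSpMo libraries was within the range found inside other libraries, and their columns may be crossed. They were therefore counted as 1 unit in every fit, and no SD is given for that group. In these bulk samples, fewer cells of a type and less RNA per cell cannot be told apart.

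**Figure D1:**
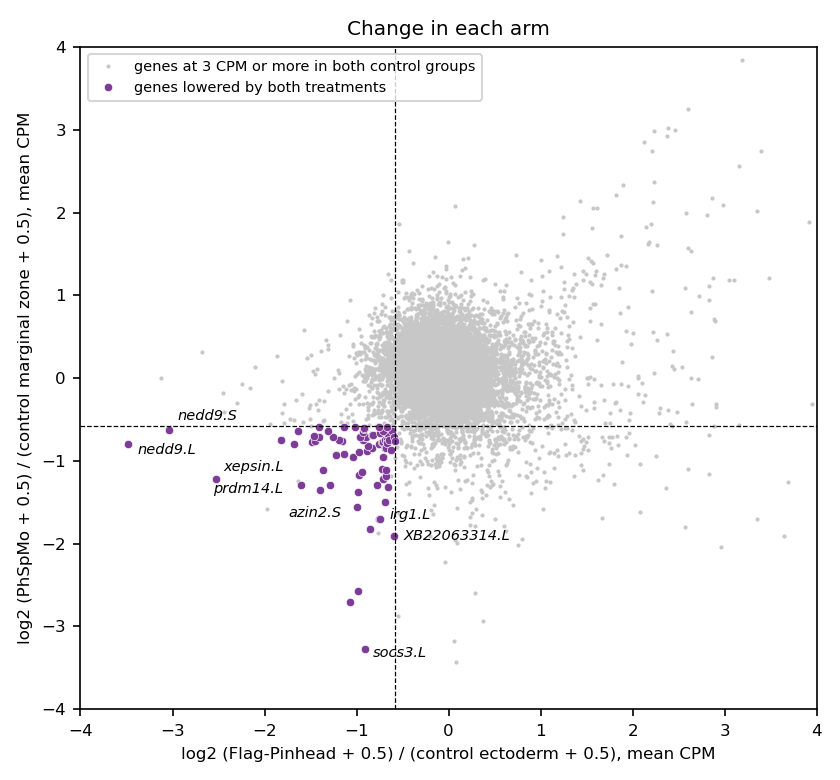
Change of each gene past the 3 CPM floor in the ectoderm arm (horizontal axis) and the marginal zone arm (vertical axis), as log2 ratios of mean CPM + 0.5, with the 74 chosen genes in purple and the ratio of 0.67 as dashed lines. 4 genes lie outside the axes, and the purple points fill the lower left corner by construction, with the nedd9 copies farthest to the left and socs3.L lowest.

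The 74 genes had a median ratio of -0.91 on the log2 scale with Flag-Pinhead RNA and -0.79 with PhSpMo, against medians of -0.08 and 0.07 over all genes past the floor. Their median fall in mean CPM was 48.1% with Flag-Pinhead RNA and 44.4% with PhSpMo. In all 74 genes the libraries of Flag-Pinhead ectoderm lay below those of control ectoderm. In all 74 the libraries of PhSpMo marginal zone also lay below those of control marginal zone, though the PhSpMo columns may be crossed. The rule makes this likely, and no share over all genes past the floor was computed, so it is a description only. By edgeR's quasi-likelihood test with Benjamini-Hochberg adjustment at 0.05, 73 of the 74 were called lower with Flag-Pinhead RNA, where 11.9% of all genes tested were called lower. With PhSpMo 73 were called lower, where 10.5% of all genes tested were. Both counts follow from how the genes were chosen, and the exceptions were socs1.S with Flag-Pinhead RNA (adjusted p 0.114) and pros1.L with PhSpMo (adjusted p 0.0606). A ratio at or under 0.5 was found in 25 genes with Flag-Pinhead RNA, in 23 with PhSpMo and in 6 in both arms. The fall was larger with Flag-Pinhead RNA in 40 genes and larger with PhSpMo in 34, a difference that was not tested. The order of the arms depends on the scaling of the libraries. In the edgeR fit, with TMM scaling, the median log2 fold change of the 74 was -0.90 with Flag-Pinhead RNA and -0.92 with PhSpMo.

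Flag-Pinhead library 2, which held more pnhd.L counts than library 1, was the lower of the pair in 36 of the 74 genes, against 39.3% of all genes past the floor. The genes just inside the threshold were socs1.S, with ratios of 0.667 with Flag-Pinhead RNA and 0.589 with PhSpMo, XB22063314.L with 0.665 with Flag-Pinhead RNA and 0.266 with PhSpMo, and LOC108716920 with 0.665 with Flag-Pinhead RNA and 0.613 with PhSpMo. Just outside it lay nudt22.L with 0.355 in the ectoderm arm and 0.6701 in the marginal zone arm, znf219.S with 0.548 and 0.672 in the same order, and LOC108718345 with 0.584 and 0.673.

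The rule was also applied to the libraries numbered 1 alone and read in those numbered 2. It chose 87 genes, of which 66 (75.9%) had a ratio at or under 0.67 with Flag-Pinhead RNA in the other libraries, where 3.89% of genes past the floor did. With PhSpMo 60 of the 87 (69.0%) did, against 3.83% of genes past the floor. Chosen in the libraries numbered 2, 82 genes were found, and in the libraries numbered 1 the ratio was met by 58 (70.7%) with Flag-Pinhead RNA and by 64 (78.0%) with PhSpMo, against 7.45% and 3.80% of genes past the floor. Genes past the floor are here those with at least 3 CPM in both control libraries of the choosing set, without the symbols left out. A total of 46 genes met the rule in both sets of libraries. For PhSpMo this is not a check between separate samples, since its columns may be crossed. The same limit holds for the count of 46, which needs the PhSpMo ratio in both sets.

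**Figure D2:**
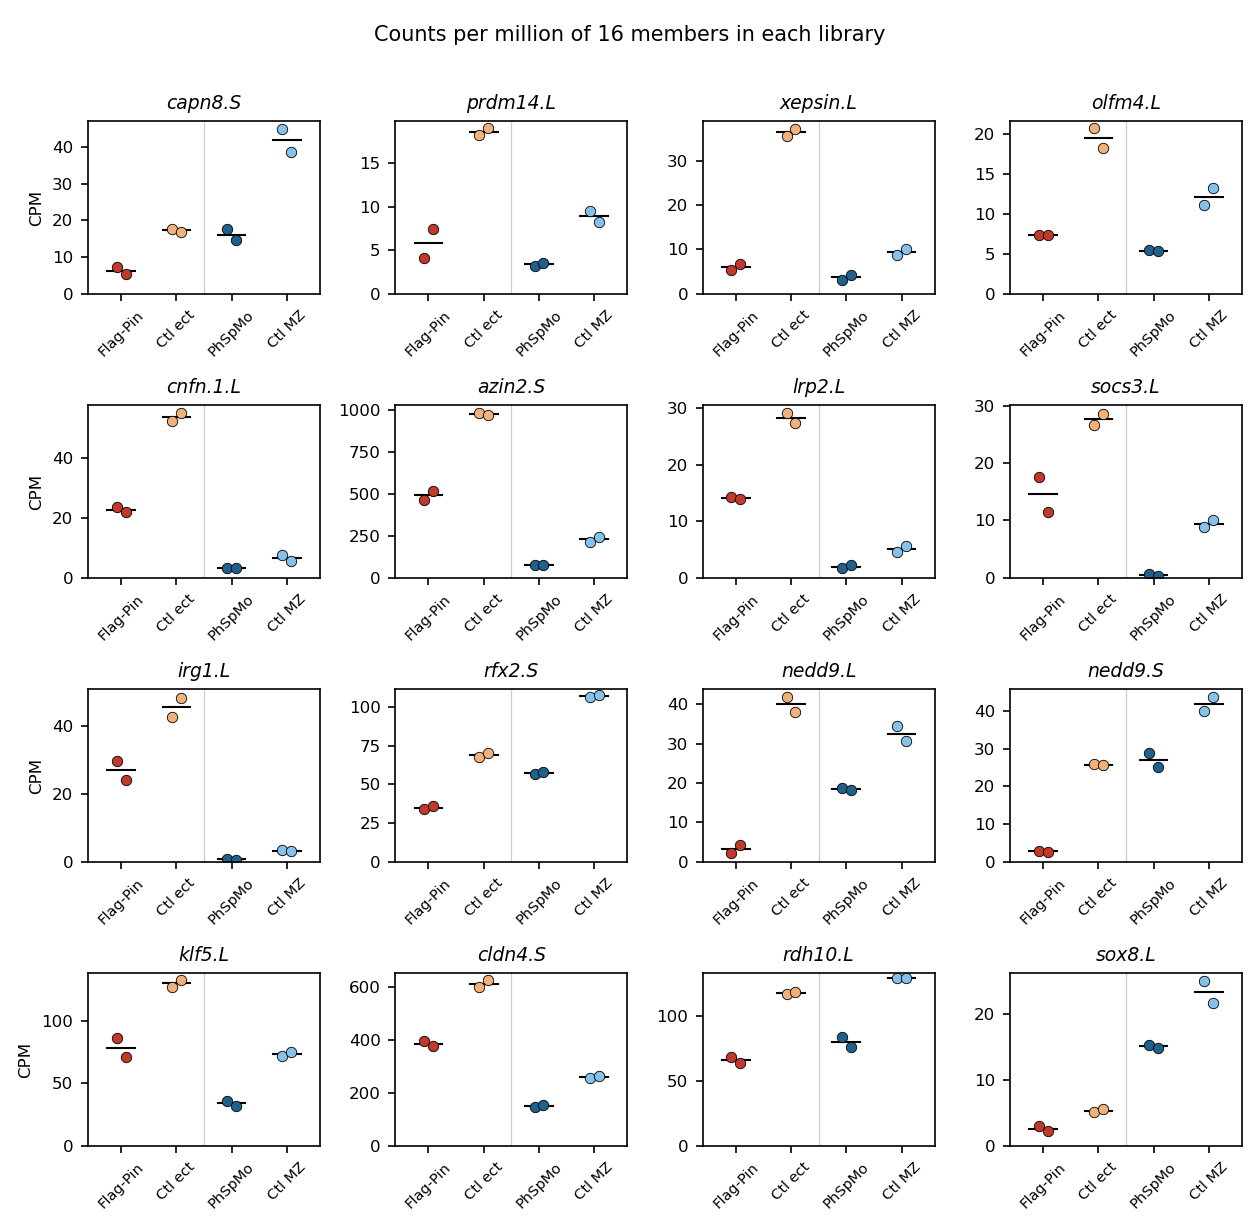
Level of 16 of the genes lowered by both treatments, in CPM on linear axes that start at 0, in Flag-Pinhead ectoderm (red), control ectoderm (orange), PhSpMo marginal zone (dark blue) and control marginal zone (light blue). Points are libraries and black lines are means of 2. In every panel both points of a treated group lie below both points of its control group, which the rule makes likely.

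Of the 17 genes for transcription factors and their partners, 8 were called higher and 5 lower in control marginal zone than in control ectoderm, where 26.5% of all genes tested were called higher and 26.3% lower. Both copies of prdm14, which encodes a PR domain factor known in mice for germ cells and pluripotency, were among the 17. For prdm14.L the levels were 4.11 and 7.47 CPM in Flag-Pinhead ectoderm, against 18.3 and 19.0 CPM in control ectoderm. In the other arm they were 3.16 and 3.54 CPM in PhSpMo marginal zone, against 9.56 and 8.28 CPM in control marginal zone. The S copy had 4.64 and 8.52 CPM in Flag-Pinhead ectoderm, against 20.6 and 22.4 CPM in control ectoderm, and 13.7 and 15.2 CPM in PhSpMo marginal zone, against 20.2 and 25.4 CPM in control marginal zone. The 2 copies thus had like ratios in ectoderm, 0.328 for L and 0.322 for S, but in the marginal zone 0.409 for L and 0.641 for S. In both copies Flag-Pinhead library 2 was nearer to the controls than library 1.

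Genes of the neural plate, its border and the placodes formed a group of 5: eya1.S, irx1.S, irx2.S, neurog2.L and sox8.L. Eya1 is a transcriptional coactivator and phosphatase of placodes, and its eya1.S transcript had 1.33 and 0.902 CPM in PhSpMo marginal zone, against 3.82 and 5.68 CPM in control marginal zone. The ectoderm arm gave 2.52 and 2.38 CPM in Flag-Pinhead ectoderm, against 4.77 and 4.22 CPM in control ectoderm, so its controls lay close to the 3 CPM floor. The Iroquois factor irx1.S had 8.36 and 8.17 CPM in Flag-Pinhead ectoderm, against 15.2 and 17.3 CPM in control ectoderm, and 20.2 and 18.8 CPM in PhSpMo marginal zone, against 26.6 and 35.1 CPM in control marginal zone. Its neighbour irx2.S had ratios of 0.544 with Flag-Pinhead RNA and 0.567 with PhSpMo. The neurogenic bHLH factor neurog2.L was near the floor, at 1.33 and 2.51 CPM in Flag-Pinhead ectoderm, against 4.46 and 3.76 CPM in control ectoderm, and its ratio was 0.597 with PhSpMo. The Sox factor sox8.L, known for neural crest, had 2.99 and 2.17 CPM in Flag-Pinhead ectoderm, against 5.12 and 5.53 CPM in control ectoderm. In marginal zone, sox8.L had 15.4 and 14.8 CPM in PhSpMo marginal zone, against 25.1 and 21.7 CPM in control marginal zone, so that even the lowest PhSpMo library stood above every ectoderm library.

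Of all 84 rows tested of the neural plate and border list, 37 were called higher and 14 lower with Flag-Pinhead RNA, 3 higher and 36 lower with PhSpMo, and 44 higher and 14 lower in control marginal zone than in control ectoderm. Over all genes tested, 15.5% were called higher and 11.9% lower with Flag-Pinhead RNA, and 8.22% higher and 10.5% lower with PhSpMo. In control marginal zone 26.5% were called higher and 26.3% lower than in control ectoderm. These shares are the background of each list count given here. The median log2 fold change of the list was 0.36 with Flag-Pinhead RNA and -0.55 with PhSpMo, against 0.00 over all genes tested in each. The 5 genes above were therefore among the smaller number of that list that were lower with Flag-Pinhead RNA. The neural plate markers sox2, sox3, zic1 and otx2 summed to 1147 and 1151 CPM in Flag-Pinhead ectoderm and 735 and 746 CPM in control ectoderm. In the other arm they summed to 1174 and 1227 CPM in PhSpMo marginal zone and 1113 and 1158 CPM in control marginal zone. Of their 6 rows, 4 were called higher with Flag-Pinhead RNA and 3 lower with PhSpMo. The median log2 fold change was 0.94 with Flag-Pinhead RNA, and -0.36 with PhSpMo, where the sum was nonetheless higher than in control.

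Factors of epidermal cell types included rfx2.S, which encodes a factor for cilia genes in Xenopus multiciliated cells, and foxi4.1.L, a forkhead factor of the family that includes the ionocyte factor foxi1. The level of rfx2.S was 33.9 and 36.0 CPM in Flag-Pinhead ectoderm, against 67.8 and 70.0 CPM in control ectoderm. In the marginal zone it was 57.0 and 57.9 CPM in PhSpMo marginal zone, against 106 and 108 CPM in control marginal zone, and in this gene the libraries of a group lay close together. The forkhead gene foxi4.1.L had 0.332 and 1.54 CPM in Flag-Pinhead ectoderm, against 4.06 and 4.16 CPM in control ectoderm, on 5 and 22 counts in the Flag-Pinhead libraries. The other arm gave foxi4.1.L at 3.93 and 4.58 CPM in PhSpMo marginal zone, against 9.08 and 6.41 CPM in control marginal zone. The multiciliated cell and ionocyte markers foxj1, mcidas, foxi1 and ubp1 summed to 125 and 117 CPM in Flag-Pinhead ectoderm, against 43.2 and 42.3 CPM in control ectoderm. They summed to 110.1 and 106 CPM in PhSpMo marginal zone, against 60.2 and 60.2 CPM in control marginal zone. Of the 7 rows tested, 5 were called higher and 1 lower with Flag-Pinhead RNA, and 1 higher and 1 lower with PhSpMo, where the median log2 fold change was -0.20 although the sum was higher.

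The zinc finger factor klf5.L, which in mammals acts in epithelia, had 86.0 and 70.6 CPM in Flag-Pinhead ectoderm, against 127 and 133 CPM in control ectoderm. In marginal zone, klf5.L had 36.0 and 31.8 CPM in PhSpMo marginal zone, against 71.9 and 74.7 CPM in control marginal zone. The Otx-related homeobox gene crx.S had 3.18 and 9.85 CPM in Flag-Pinhead ectoderm, against 15.3 and 15.1 CPM in control ectoderm, and its Flag-Pinhead libraries stood far apart while both stayed under the controls. With PhSpMo its ratio was 0.591. The nuclear receptor gene nr4a1, an immediate early gene, was present as 2 rows, nr4a1 with ratios of 0.376 with Flag-Pinhead RNA and 0.664 with PhSpMo and nr4a1.L with 0.402 with Flag-Pinhead RNA and 0.641 with PhSpMo. How reads were divided between these rows is not known, so their values are uncertain. In the immediate early list of 52 rows tested, 21 were called higher and 8 lower with Flag-Pinhead RNA and 1 higher and 19 lower with PhSpMo. The Sox factor sox18.S, known for endothelium in mammals, had ratios of 0.378 with Flag-Pinhead RNA and 0.608 with PhSpMo. Those of fam60a.L, a subunit gene of the Sin3 histone deacetylase complex, were 0.590 with Flag-Pinhead RNA and 0.663 with PhSpMo. The last 2, mn1.S and znf407.S, lay between 0.593 and 0.662 in both arms.

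Of the 15 genes for signalling proteins, 6 were called higher and 2 lower in control marginal zone than in control ectoderm, and 7 had no call. Over all genes tested, 26.5% were called higher and 26.3% lower in this comparison. The lowest ratio of any of the 74 with PhSpMo was that of socs3.L, which encodes a feedback inhibitor of cytokine and JAK-STAT signalling. It had 17.6 and 11.5 CPM in Flag-Pinhead ectoderm, against 26.6 and 28.6 CPM in control ectoderm. Marginal zone levels of socs3.L were 0.702 and 0.347 CPM in PhSpMo marginal zone, against 8.77 and 10.1 CPM in control marginal zone, and its ratios were 0.534 with Flag-Pinhead RNA and 0.103 with PhSpMo. The related socs1.S lay at the threshold and near the floor, with 1.59 and 2.86 CPM in Flag-Pinhead ectoderm, against 3.25 and 3.94 CPM in control ectoderm.

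The G protein regulator gene rgs2.L had 0.663 and 1.05 CPM in Flag-Pinhead ectoderm, against 4.11 and 4.51 CPM in control ectoderm, and its ratios were 0.282 with Flag-Pinhead RNA and 0.595 with PhSpMo. For cxcl12.L, which encodes a chemokine that guides migrating cells, the levels were 13.4 and 16.6 CPM in Flag-Pinhead ectoderm, against 43.0 and 41.3 CPM in control ectoderm. In marginal zone, cxcl12.L had 28.4 and 24.6 CPM in PhSpMo marginal zone, against 42.9 and 43.9 CPM in control marginal zone, and it had no call between the control tissues (adjusted p 0.989). The leucine-rich repeat membrane protein gene lrrn1.L had 16.98 and 13.3 CPM in Flag-Pinhead ectoderm, against 44.9 and 39.2 CPM in control ectoderm. The inhibitory Smad gene smad7.S, which dampens BMP and TGF-beta signals, had 31.8 and 27.7 CPM in Flag-Pinhead ectoderm, against 56.9 and 49.0 CPM in control ectoderm. The other arm gave smad7.S at 58.2 and 57.2 CPM in PhSpMo marginal zone, against 95.7 and 91.0 CPM in control marginal zone, and its ratios were 0.566 with Flag-Pinhead RNA and 0.620 with PhSpMo.

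The other signalling genes encode ligands, receptors, cell surface proteins and their partners. The PDGF ligand gene pdgfa.S had 5.57 and 9.78 CPM in Flag-Pinhead ectoderm, against 12.2 and 12.5 CPM in control ectoderm. In marginal zone, pdgfa.S had 5.69 and 4.995 CPM in PhSpMo marginal zone, against 16.4 and 11.6 CPM in control marginal zone. The receptor tyrosine kinase gene kit.L had ratios of 0.623 with Flag-Pinhead RNA and 0.439 with PhSpMo, and sdc4.L, which encodes the heparan sulphate proteoglycan syndecan-4, had 0.582 with Flag-Pinhead RNA and 0.407 with PhSpMo. The semaphorin gene sema4c.L had 0.611 with Flag-Pinhead RNA and 0.515 with PhSpMo, and vwc2l.2.L, for a secreted protein with a von Willebrand factor C domain, had 0.626 with Flag-Pinhead RNA and 0.463 with PhSpMo. The signalling gene kalrn.L had 33.1 and 24.7 CPM in Flag-Pinhead ectoderm, against 43.1 and 47.8 CPM in control ectoderm. Marginal zone levels of kalrn.L were 3.72 and 4.65 CPM in PhSpMo marginal zone, against 8.05 and 6.75 CPM in control marginal zone. The remaining ratios were 0.654 with Flag-Pinhead RNA and 0.641 with PhSpMo for the NDR kinase gene stk38l.S, 0.453 with Flag-Pinhead RNA and 0.663 with PhSpMo for the kinase gene hunk.S, and 0.649 with Flag-Pinhead RNA and 0.547 with PhSpMo for the BTB adaptor gene btbd6.L.

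Genes of the epithelial surface and of secreted proteins numbered 8, and their median ratios were 0.419 with Flag-Pinhead RNA and 0.493 with PhSpMo. The serine protease gene xepsin.L, described in the embryonic epidermis of Xenopus, had 5.24 and 6.64 CPM in Flag-Pinhead ectoderm, against 35.8 and 37.2 CPM in control ectoderm. In marginal zone, xepsin.L had 3.16 and 4.23 CPM in PhSpMo marginal zone, against 8.61 and 10.02 CPM in control marginal zone. The calpain gene capn8.S, whose mammalian relative is found in stomach mucous cells, had 7.16 and 5.31 CPM in Flag-Pinhead ectoderm, against 17.6 and 16.9 CPM in control ectoderm. The other arm gave capn8.S at 17.6 and 14.6 CPM in PhSpMo marginal zone, against 45.1 and 38.7 CPM in control marginal zone, and with ratios of 0.379 with Flag-Pinhead RNA and 0.391 with PhSpMo it had the largest fall of the 74 when each gene is ranked by its weaker arm. In control tissues capn8.S was the higher in marginal zone, while xepsin.L was the higher in ectoderm.

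The cornifelin gene cnfn.1.L, whose mammalian counterpart is part of the cornified envelope, had 23.6 and 21.8 CPM in Flag-Pinhead ectoderm, against 52.4 and 55.0 CPM in control ectoderm. In marginal zone, cnfn.1.L had 3.16 and 3.26 CPM in PhSpMo marginal zone, against 7.65 and 5.54 CPM in control marginal zone. The secreted olfactomedin gene olfm4.L had 7.30 and 7.26 CPM in Flag-Pinhead ectoderm, against 20.7 and 18.2 CPM in control ectoderm, and 5.41 and 5.27 CPM in PhSpMo marginal zone, against 11.1 and 13.2 CPM in control marginal zone. Each of these genes had lower levels in both marginal zone groups than in either control ectoderm library. The claudin gene cldn4.S, for a tight junction protein, had 397 and 377 CPM in Flag-Pinhead ectoderm, against 601 and 629 CPM in control ectoderm. Marginal zone levels of cldn4.S were 147 and 153 CPM in PhSpMo marginal zone, against 256 and 262 CPM in control marginal zone. The ratios of clca3p.L, related to calcium-activated chloride channel regulators, were 0.410 with Flag-Pinhead RNA and 0.409 with PhSpMo, and those of the secreted serine protease gene htra1.S were 0.538 with Flag-Pinhead RNA and 0.612 with PhSpMo. The gene for the anticoagulant protein S, pros1.L, had 0.609 with Flag-Pinhead RNA and 0.643 with PhSpMo and few counts.

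Of the 57 rows tested of the epidermis and ectoderm list, which holds klf5.L, cldn4.S, crx.S and xepsin.L, 18 were called higher and 19 lower with Flag-Pinhead RNA and 3 higher and 24 lower with PhSpMo. In control marginal zone 9 were called higher and 37 lower than in control ectoderm. All 8 rows of the epidermis markers krt12, krt5.7, tfap2a, grhl3 and tp63 were detected in every group. Symbols beginning with krt, tfap2 or grhl are left out of the 74, and the sum of these markers was lower in both arms. The markers summed to 1576 and 1463 CPM in Flag-Pinhead ectoderm, against 2355 and 2435 CPM in control ectoderm. They summed to 839 and 825 CPM in PhSpMo marginal zone, against 1259 and 1242 CPM in control marginal zone. Of these 8 rows, 6 were called lower in each arm, and 1 was called higher with Flag-Pinhead RNA. The marker grhl3.S itself met both ratios, 0.650 with Flag-Pinhead RNA and 0.607 with PhSpMo, and was left out by its symbol alone. The part of the epidermal markers in the result was not tested.

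Among the 13 genes of metabolism and transport was azin2.S, which encodes an antizyme inhibitor that raises polyamine synthesis. Its level was 464 and 517 CPM in Flag-Pinhead ectoderm, against 982 and 973 CPM in control ectoderm. In the marginal zone it was 76.9 and 76.7 CPM in PhSpMo marginal zone, against 214 and 242 CPM in control marginal zone, a ratio of 0.338. The organic cation transporter gene slc22a4.L had 208 and 186 CPM in Flag-Pinhead ectoderm, against 329 and 319 CPM in control ectoderm. In marginal zone, slc22a4.L had 42.6 and 41.0 CPM in PhSpMo marginal zone, against 99.4 and 97.5 CPM in control marginal zone. The gene for the endocytic receptor megalin, lrp2.L, had 14.3 and 13.9 CPM in Flag-Pinhead ectoderm, against 29.1 and 27.3 CPM in control ectoderm, and 1.62 and 2.29 CPM in PhSpMo marginal zone, against 4.46 and 5.61 CPM in control marginal zone. Its relative ldlr.L, for the receptor of low density lipoprotein, had ratios of 0.534 with Flag-Pinhead RNA and 0.611 with PhSpMo.

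Genes of retinoid conversion were present with opposite roles: rdh10.L, for the enzyme that makes retinaldehyde from retinol, and dhrs3.S, for an enzyme that reduces it back to retinol. For rdh10.L the levels were 68.1 and 63.6 CPM in Flag-Pinhead ectoderm, against 117 and 119 CPM in control ectoderm. The other arm gave rdh10.L at 84.0 and 76.4 CPM in PhSpMo marginal zone, against 129.6 and 129.7 CPM in control marginal zone. For dhrs3.S the ratios were 0.608 with Flag-Pinhead RNA and 0.586 with PhSpMo, and its control levels were higher in marginal zone than in ectoderm. The gene irg1.L, whose mammalian counterpart makes itaconate in macrophages, had 29.7 and 24.0 CPM in Flag-Pinhead ectoderm, against 42.6 and 48.2 CPM in control ectoderm. In marginal zone, irg1.L had 0.702 and 0.555 CPM in PhSpMo marginal zone, against 3.35 and 3.01 CPM in control marginal zone, so its ectoderm level with Flag-Pinhead RNA was still above that of either marginal zone group.

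The amino acid enzyme gene sds.L (serine dehydratase) had ratios of 0.485 with Flag-Pinhead RNA and 0.515 with PhSpMo, and the mitochondrial basic amino acid carrier gene slc25a29.L had 0.456 with Flag-Pinhead RNA and 0.528 with PhSpMo. The lysophospholipid transporter gene mfsd2a.S had 0.539 with Flag-Pinhead RNA and 0.545 with PhSpMo, and maneal.L, related to endo-alpha-mannosidase, had 0.506 with Flag-Pinhead RNA and 0.384 with PhSpMo. Carriers slc25a34.L and slc12a3l.S completed the group with ratios of 0.493 to 0.663. Of the 341 solute carrier rows tested, 50 were called higher and 37 lower with Flag-Pinhead RNA, and 39 higher and 44 lower with PhSpMo.

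The largest falls with Flag-Pinhead RNA were those of the 2 copies of nedd9, which encodes a scaffold protein of cell adhesion sites. The L copy had 2.06 and 4.19 CPM in Flag-Pinhead ectoderm, against 41.8 and 38.2 CPM in control ectoderm. Marginal zone levels of nedd9.L were 18.8 and 18.2 CPM in PhSpMo marginal zone, against 34.4 and 30.7 CPM in control marginal zone. The S copy had 2.79 and 2.58 CPM in Flag-Pinhead ectoderm, against 26.0 and 25.5 CPM in control ectoderm, and 28.7 and 24.98 CPM in PhSpMo marginal zone, against 40.0 and 43.6 CPM in control marginal zone. Their ratios with Flag-Pinhead RNA were 0.0895 and 0.121, while those with PhSpMo, 0.575 and 0.646, lay near the threshold.

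For the other genes of the cytoskeleton the ratios were 0.560 with Flag-Pinhead RNA and 0.557 with PhSpMo for gas2l1.L, which links actin filaments to microtubules, 0.514 with Flag-Pinhead RNA and 0.613 with PhSpMo for palm2akap2.S, which anchors protein kinase A, and 0.528 with Flag-Pinhead RNA and 0.659 with PhSpMo for shroom4.L, a Shroom family actin regulator gene. The tubulin gene tuba1a.S had 0.609 with Flag-Pinhead RNA and 0.586 with PhSpMo. Another tubulin gene, tubal3.2.L, had 0.625 with Flag-Pinhead RNA and 0.559 with PhSpMo, and reads of tubulin copies may be shared between rows. The single gene for an RNA binding protein, rbms2.L, had 0.620 with Flag-Pinhead RNA and 0.595 with PhSpMo.

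Of the 74 genes, 13 had no role assigned, and 8 of the 74 are named only by a LOC number. Ratios of the 13 ran between 0.356 and 0.665 with Flag-Pinhead RNA and between 0.153 and 0.633 with PhSpMo. The uncharacterised XB22063314.L had 191 and 158 CPM in Flag-Pinhead ectoderm, against 260.4 and 263 CPM in control ectoderm. In marginal zone, XB22063314.L had 5.13 and 5.69 CPM in PhSpMo marginal zone, against 22.9 and 20.6 CPM in control marginal zone. Chosen after their values were seen, LOC100490918.L and LOC108698345 showed a similar pattern. LOC100490918.L had 279.6 and 199 CPM in Flag-Pinhead ectoderm, against 456 and 489 CPM in control ectoderm, and 8.43 and 10.1 CPM in PhSpMo marginal zone, against 55.9 and 59.7 CPM in control marginal zone. LOC108698345 had 169.9 and 104 CPM in Flag-Pinhead ectoderm, against 269 and 307 CPM in control ectoderm, and 2.04 and 3.75 CPM in PhSpMo marginal zone, against 20.2 and 23.1 CPM in control marginal zone. In control marginal zone over control ectoderm, these 3 genes had log2 fold changes of -3.64, -3.07 and -3.77.

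The comparison of the 2 control tissues was not a ratio of the rule, though both control groups enter the rule as denominators. In control marginal zone 26 of the 74 genes (35.1%) were called higher than in control ectoderm, where 26.5% of all genes tested were, and 29 (39.2%) were called lower, where 26.3% were. Among genes past the floor the shares were 28.8% higher and 29.4% lower. The median log2 fold change of the 74 was 0.05, and the median of its absolute value was 0.77, against 0.30 over genes past the floor. A difference over 2-fold was found in 39.2% of the 74, with 22 lower and 7 higher in control marginal zone, against 7.34% of genes past the floor. The stages of the control tissues, 11 for ectoderm and 10.5 for marginal zone by the labels, also differ, and stage and tissue cannot be told apart.

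The largest log2 fold change towards marginal zone was that of sox8.L, 2.09 (SE 0.15, adjusted p 1.41e-11), followed among genes with a symbol by dhrs3.S with 1.35 (SE 0.13, adjusted p 4.89e-09). Next were crx.S with 1.33 (SE 0.18, adjusted p 8.86e-07), capn8.S with 1.23 (SE 0.12, adjusted p 2.02e-09) and rgs2.L with 1.02 (SE 0.20, adjusted p 1.01e-04). Towards ectoderm the largest was that of irg1.L, -3.88 (SE 0.16, adjusted p 7.51e-17). Leaving out genes named only by a LOC number or identifier, it was followed by XB22063314.L with -3.64 (SE 0.09, adjusted p 3.32e-21), cnfn.1.L with -3.08 (SE 0.13, adjusted p 1.44e-16), kalrn.L with -2.67 (SE 0.14, adjusted p 3.15e-14) and lrp2.L with -2.52 (SE 0.14, adjusted p 1.13e-13). With DESeq2 the call of crx.S was lost (adjusted p 0.0601), as it was with edgeR's robust estimate of spread (0.0674). Of the 8 epithelial surface genes, 1 was called higher and 6 lower in control marginal zone than in control ectoderm. Over all genes tested, 26.5% were called higher and 26.3% lower, and the roles were assigned after the values were seen.

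Of the 26 genes called higher in control marginal zone, 20 fell more with Flag-Pinhead RNA than with PhSpMo. Of the 29 called lower 13 did, and of the 19 with no call 7 did. Both ratios chose the genes, and their denominators are the 2 control groups compared, so these counts are a description only. The arms also differed in median log2 ratio over all genes past the floor, -0.08 with Flag-Pinhead RNA and 0.07 with PhSpMo. The order of the control tissues was kept after treatment in some genes. Of the 33 genes with the higher mean in control ectoderm, 20 kept a Flag-Pinhead ectoderm mean above that of control marginal zone. Of the 41 with the higher mean in control marginal zone, 16 kept a PhSpMo mean above that of control ectoderm. No share over all genes past the floor was computed for the counts of this paragraph, and the means are CPM without TMM scaling.

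**Figure D3:**
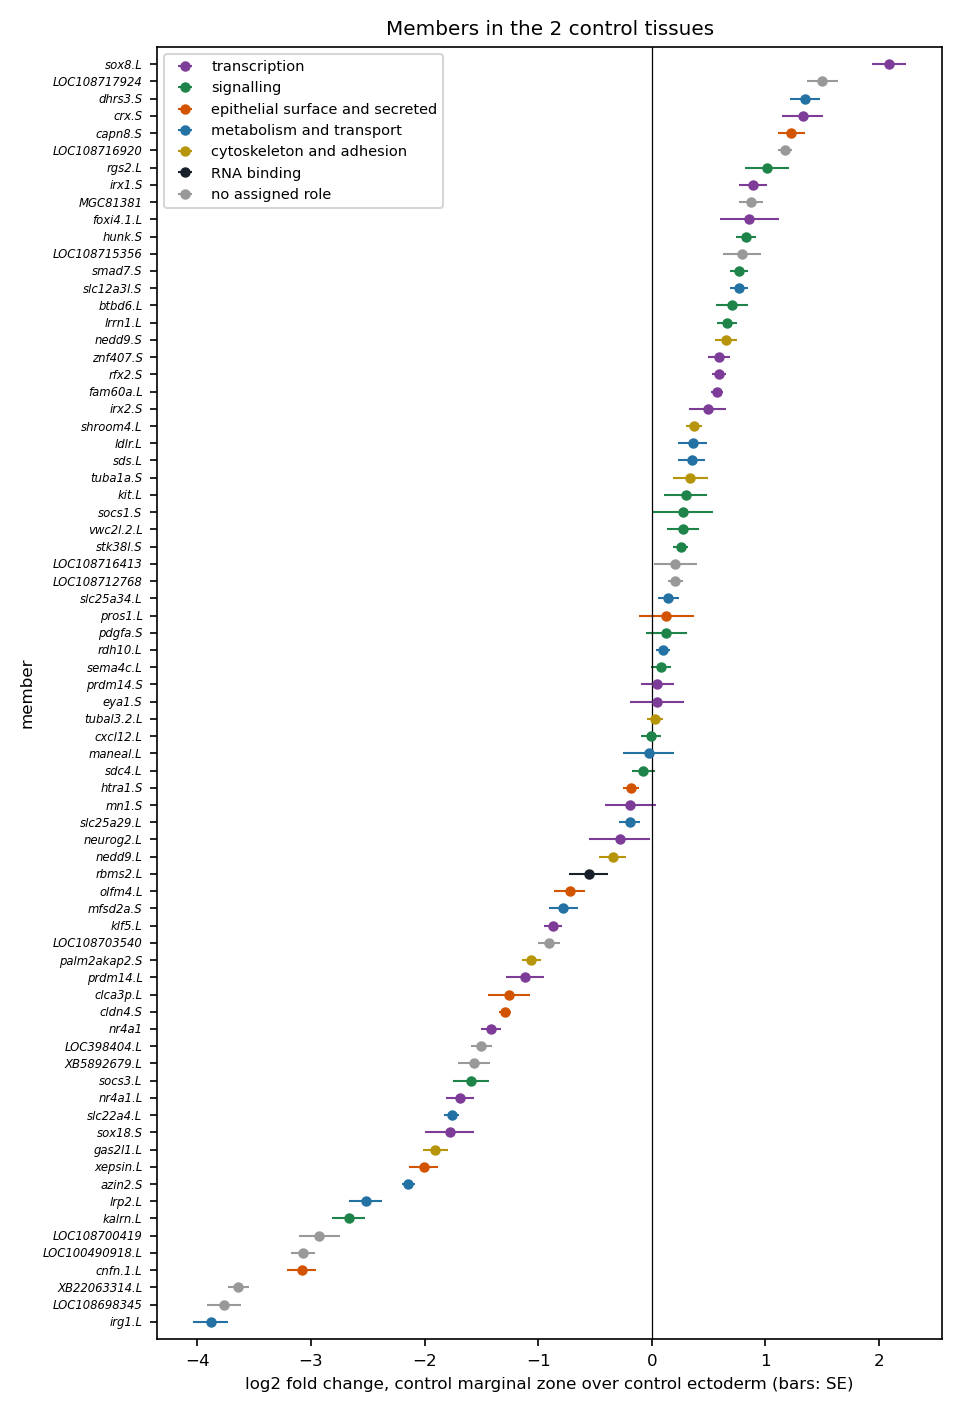
Log2 fold change of control marginal zone over control ectoderm for each of the 74 genes lowered by both treatments, ordered by its value and coloured by role, with bars of 1 standard error. Genes range from irg1.L at the left, higher in ectoderm, to sox8.L at the right, higher in marginal zone, and the epithelial surface genes other than capn8.S and pros1.L lie left of 0.

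Of the 64 genes with an L or S name, 48 had their other copy in the table, and in 32 cases that copy was past the floor. Among these 32, only the copies of prdm14 and nedd9 were chosen together. The row nr4a1, chosen along with nr4a1.L, has no L or S ending and is not counted as a copy. Both copies of gata2, gata3 and dlx3 also met both ratios and were left out by symbol. The other 28 of the 32 copies are by construction those that missed a ratio in at least 1 arm. Their median ratio was 0.7997 with Flag-Pinhead RNA and 0.732 with PhSpMo, 19 of the 28 were under 1 in both arms, and 17 were above 0.67 in both. By edgeR 11 of the 28 were called lower and 2 higher with Flag-Pinhead RNA, and 20 were called lower with PhSpMo. Over genes past the floor, 16.7% were called lower and 13.7% higher with Flag-Pinhead RNA, and 13.1% were called lower with PhSpMo. How reads were divided between L and S copies is not known, so the calls of a copy may not be separate from those of the chosen gene.

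The copies that were called higher with Flag-Pinhead RNA were pdgfa.L, with a ratio of 1.60 and an edgeR log2 fold change of 0.75 (adjusted p 2.74e-05), and kit.S, with a ratio of 1.60 and 0.80 (adjusted p 0.00711). For pdgfa.S and kit.L, the chosen copies, the ratios were 0.636 and 0.623. The difference between copies was not tested. In the marginal zone the copies with the highest ratios were kalrn.S at 1.42 and gas2l1.S at 1.23, and neither was called. The copy of XB22063314.L had a ratio of 1.05 with Flag-Pinhead RNA and 0.110 with PhSpMo, while foxi4.1.S had 0.350 and 0.776 in the same order.

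**Figure D4:**
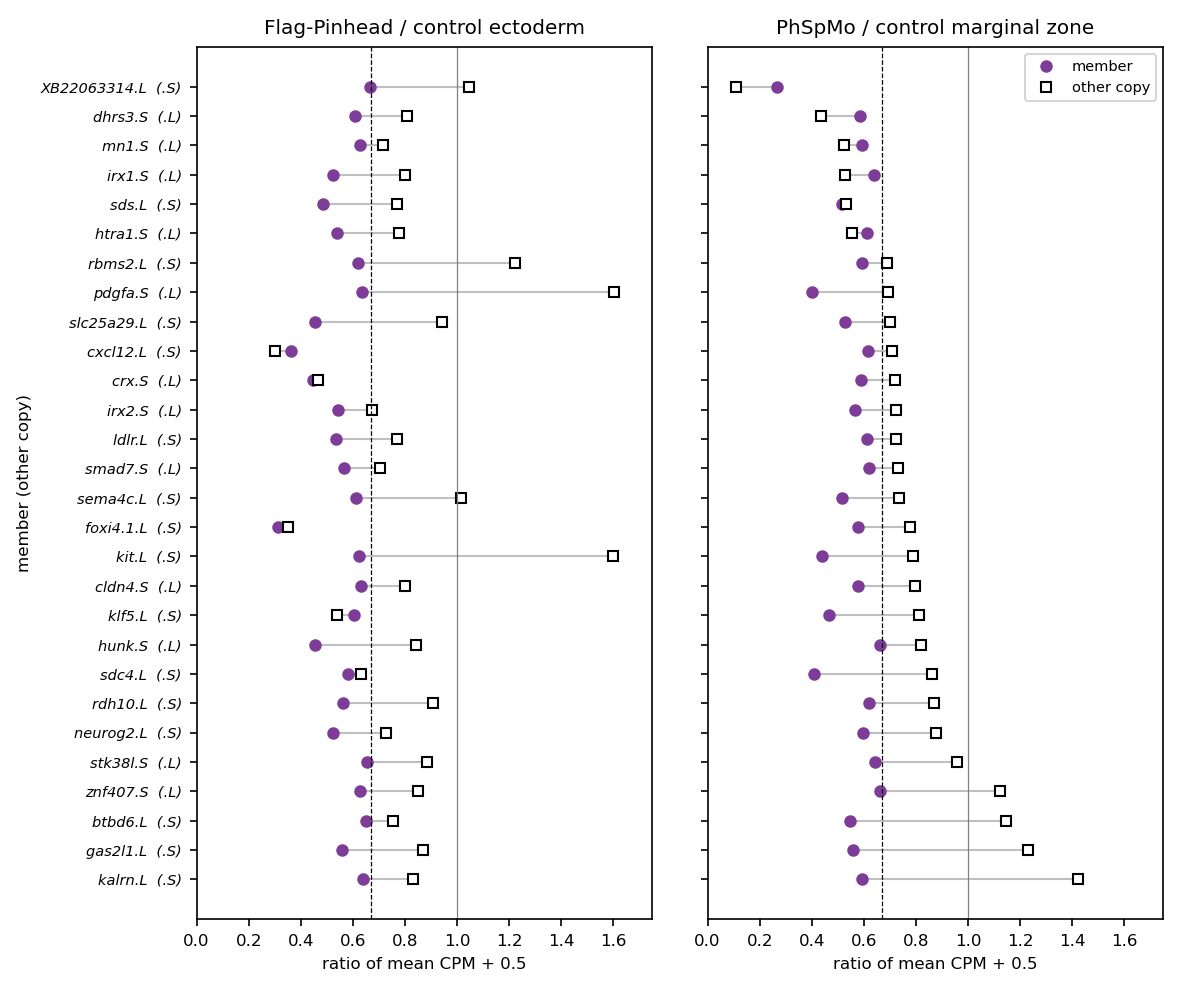
Ratio of mean CPM + 0.5 of the chosen copy (purple circle) and of its other copy (open square) for the 28 genes whose other copy was past the floor but not chosen, with Flag-Pinhead over control ectoderm on the left and PhSpMo over control marginal zone on the right. The dashed line is the ratio of 0.67 and the solid line 1, and the pdgfa.L and kit.S squares reach 1.60 on the left.

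In the gene order of the RefSeq assembly X. laevis v10.1, irx1.S and irx2.S lay on chromosome 6S with 3 genes between them, prdm14.S and eya1.S on 6S with 4 between them, and LOC100490918.L and irg1.L on 8L with 1 gene between them, gatd3alb.1.L. The build behind the counts is not given, so no coordinates are used.

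At least 1 of the 30 gene lists held 28 of the 74 genes (37.8%), against 11.1% of genes past the floor, and 46 were in none. The lists were written with earlier results of these data known, so this share supports nothing further. None of the 74 was in the lists of cell cycle genes, the Wnt, Notch or FGF pathways, mesoderm, germ plasm, p53 response, chromatin, histones or kinesins. The same held for the lists of mRNA decay, redox enzymes and protein phosphatases. Before symbols were left out, 0.54% of genes past the floor met both ratios, and these lists held 13 to 154 genes past the floor. A count of 0 is therefore near that share and is not a result about these lists. The BMP and FGF lists were made without the symbols that the rule leaves out, so they do not cover those pathways in full. Of the 53 rows tested of the BMP list, which holds smad7.S, 14 were called higher and 15 lower with Flag-Pinhead RNA, and 5 higher and 17 lower with PhSpMo. Of the 36 rows of the ionocyte and multiciliated cell list, which holds foxi4.1.L, rfx2.S and tuba1a.S, 13 were called higher and 9 lower with Flag-Pinhead RNA, and 5 higher and 5 lower with PhSpMo. Of the 63 rows of the G protein signalling list, which holds cxcl12.L and rgs2.L, 12 were called higher and 12 lower with Flag-Pinhead RNA, and 11 higher and 14 lower with PhSpMo.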

How the data were processed

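Messenger RNA of 8 explant libraries was measured. Per the labels' protocols, it was selected on oligo(dT) and sequenced on a HiSeq2000, with no strand marking stated, so a gene and its antisense partner may share reads. CASAVA 1.8, HISAT2, SAMtools and HTSeq were used, per the submitters' processing notes. Neither genome build nor counting options is named in the labels. The authors deposited raw counts for 35649 genes in 16 columns, 2 per library, which were summed. Mistyped names of 2 columns were assigned to control marginal zone library 1, since every other library had its own 2 columns.

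CPM were computed from totals without pnhd.L and LOC108706889, and the pseudocount was 0.5 CPM. The levels given for pnhd.L and LOC108706889 themselves used totals that include them, and the edgeR fits kept these rows. The symbol exclusions were also applied to RefSeq symbols of LOC identifiers (11186 of 24313 were given one). The chi-square of counts between the libraries of a group, averaged over genes with at least 50 counts, was 1.43 for PhSpMo, against 2.05 to 4.01 for the others. Columns of PhSpMo grouped by last digit instead gave 3.41. The PhSpMo columns therefore entered the fit as 1 unit, taken to vary as the other groups do.

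Calls used edgeR 4.0.16 in R 4.3.3: filterByExpr at a minimum of 10 counts (22241 genes), TMM, 1 mean per group over 7 units with 3 residual degrees of freedom, quasi-likelihood F tests and Benjamini-Hochberg adjustment at 0.05. The fit was tested on simulated data. DESeq2 1.42.0, other scalings, filters, thresholds and left-out libraries were alternatives. No pairing of libraries by replicate number was seen, and none was used in the main fit.

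The genes, lists and tests were chosen with earlier results of these data known. Genes were named as the 15 with the largest fall in the weaker arm, the 8 with the highest control levels, pairs of chosen copies, up to 3 per gene list, the 5 with the largest difference between arms and between control tissues in each direction, and those at the threshold. Other genes are given to account for all members of a role. Roles were assigned after the values were seen.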

Additional observations from a re-analysis of the deposited data

How the results depend on the processing

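The count of genes chosen was 6 at a ratio of 0.5 and 151 at 0.75, 48 with a control floor of 10 CPM, and 367 when edgeR calls replaced the ratios, of which 72 were among the 74. With symbols left out by file names only, an alternative chosen after seeing the data, it was 77. Leaving out 1 library at a time gave 74 to 81 genes chosen, of which 64 to 74 were among the 74. The fewest shared, 64 of 76 chosen, were found without control marginal zone library 1. With 1 library left out of the fit, 67 to 73 of the 74 were called lower with Flag-Pinhead RNA and 65 to 74 with PhSpMo. In control marginal zone 21 to 27 were then called higher and 27 to 29 lower. Same-numbered libraries of different groups did not deviate together (correlations of -0.04 to 0.01), so no pairing by number was seen. The correlations with PhSpMo cannot decide this, since its columns may be crossed. With the replicate block in a fit of 8 libraries, 73 were called lower with Flag-Pinhead RNA, 74 with PhSpMo, and 27 were higher and 29 lower in control marginal zone. DESeq2 gave 65, 64, 21 and 26 for the same calls and no call between the control tissues for sds.L (adjusted p 0.112), htra1.S (0.151), nedd9.L (0.113), crx.S (0.0601), foxi4.1.L (0.0811) and irx2.S (0.127). Leaving out 1 control library ended the tissue call of sds.L, stk38l.S, htra1.S, nedd9.L, foxi4.1.L or irx2.S in at least 1 case (adjusted p 0.0543 to 0.369). Without TMM the median of all genes shifted by -0.11 with Flag-Pinhead RNA and by 0.07 with PhSpMo. With TMM-adjusted totals the rule chose 85 genes, of which 70 were among the 74. The median log2 fold change of the 74 between the control tissues, 0.05, was -0.01 without control marginal zone library 2, and -0.01 to 0.06 over the left-out libraries, so its sign is not settled. Depth limits the genes near 3 CPM, such as foxi4.1.L, neurog2.L and socs1.S.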
